A study of Mus musculus with 8 samples.

Results

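Expression of 9 genes of the DOCK (dedicator of cytokinesis) family, *Dock1*, *Dock2*, *Dock4*, *Dock5*, *Dock6*, *Dock8*, *Dock9*, *Dock10* and *Dock11*, was compared between *K-Ctrl* and *K-Setd2KO* mouse lung tumors. These are 9 of the 48709 genes in the table, and *Dock3* is given beside them. The members were chosen by family name with their fold changes between these same 8 tumors already known, and were divided, by those values and by known expression, into 4 leukocyte members (*Dock2*, *Dock8*, *Dock10* and *Dock11*) and 5 more widely expressed members. Their levels and fold changes between genotypes are therefore given as a description, without a test.

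DOCK proteins activate small GTPases. They carry a catalytic DHR2 domain that exchanges GDP for GTP on Rac or Cdc42, which in turn drives actin polymerization, cell migration and phagocytosis. The family is divided into an A group (*Dock1*, *Dock2*, *Dock5*) and a B group (*Dock3*, *Dock4*), which act on Rac together with ELMO adaptor proteins, a C group (*Dock6*, *Dock8*) and a D group (*Dock9*, *Dock10*, *Dock11*) that acts on Cdc42. *Dock2* and *Dock8* are known for their roles in the migration and synapses of white blood cells, and inherited loss of either causes immunodeficiency in people.

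RNA was sequenced from 8 lung tumors, 4 per genotype. All 8 came from mice of the *K* model on a mixed B6J/129S4vJae background, in which a lentiviral CRISPR vector delivered to the airway carried Cre, which starts the tumors, together with Cas9 and a guide RNA. In *K-Ctrl* tumors the guide was directed at GFP as a non-targeting control, and in *K-Setd2KO* tumors at *Setd2*, which encodes the methyltransferase that places trimethylation on lysine 36 of histone H3. Both genotypes thus share the *K* model, Cre and Cas9, and no animal without the vector was analysed here. The study describes the *K-Setd2KO* tumors as low grade adenomas and as stage matched to their controls. Whether each tumor came from its own animal and the age at harvest are not given in the sources used here, so p-values here measure only the spread between these samples, which may be partly technical. The design text speaks of frozen whole tumors and the extraction text of cell lines, a difference that was not resolved.

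The shallowest library, *K-Setd2KO* replicate 4, held 5806599 counts and the deepest, *K-Ctrl* replicate 3, held 21290402, and a limit of 3 counts corresponded to 0.141 to 0.517 CPM (read counts relative to library size) at these totals. The CPM values of genes use library sizes adjusted by TMM factors. *Setd2* mRNA stood at 140.1 ± 8.81 CPM in *K-Ctrl* tumors and 136 ± 15.5 CPM in *K-Setd2KO* tumors (mean ± SD, n = 4 each), so transcript level did not separate the labels. Small CRISPR lesions need not lower the transcript level, and whether *Setd2* was edited in each tumor cannot be read from these counts. The alveolar type 2 marker *Sftpc* averaged 25164 and 25119 CPM in the 2 genotypes. By *Xist* and Y-linked genes, 1 of 4 *K-Ctrl* and 3 of 4 *K-Setd2KO* tumors were female, and reads of mitochondrial genes took 3.45% to 5.43% of counts.

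The leukocyte members lie on chromosomes 11, 19, 1 and X. In the GRCm38 coordinates of the table, *Dock2* (ENSMUSG00000020143) covers chr11:34226815-34783892 on the minus strand, *Dock8* (ENSMUSG00000052085) chr19:24999529-25202432 on the plus strand, *Dock10* (ENSMUSG00000038608) chr1:80501073-80758527 on the minus strand and *Dock11* (ENSMUSG00000031093) chrX:35888832-36076562 on the plus strand. The other members are *Dock1* at chr7:134670654-135173639 (plus), *Dock4* at chr12:40446053-40846486 (plus), *Dock5* at chr14:67751928-67933572 (minus), *Dock6* at chr9:21800184-21852635 (minus) and *Dock9* at chr14:121542039-121797837 (minus). The leukocyte members have no cluster in common, and each is a long gene, spanning 557, 203, 257 and 188 kb against a median of 21.3 kb over the genes tested. Length did not set them apart from the other members, since *Dock1* spans 503 kb and *Dock4* 400.4 kb. *Dock6*, at 52.5 kb, was the shortest of the 9.

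The 250 bases upstream of the RefSeq start (build GRCm38.p6) were read for the 4 leukocyte members, which were lower together in *K-Setd2KO* tumors, and for *Dock4* as a widely expressed comparison. Capitals mark AGGAAG, the core bound by PU.1, a myeloid and lymphoid factor of the ETS family, and CCGGAAG, an ETS core in broader use, searched on both strands; the letters of the first and second motif do not overlap in these windows. The windows are *Dock2* chr11:34783906-34784155 (minus), *Dock8* chr19:24999279-24999528 (plus), *Dock10* chr1:80758554-80758803 (minus), *Dock11* chrX:35888582-35888831 (plus) and *Dock4* chr12:40445803-40446052 (plus), each written 5′ to 3′ along the gene.
Dock2: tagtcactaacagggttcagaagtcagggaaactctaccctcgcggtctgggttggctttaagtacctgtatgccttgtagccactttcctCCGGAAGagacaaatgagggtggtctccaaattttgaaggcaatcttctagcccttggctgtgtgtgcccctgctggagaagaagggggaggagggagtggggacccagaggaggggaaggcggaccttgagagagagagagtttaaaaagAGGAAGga
Dock8: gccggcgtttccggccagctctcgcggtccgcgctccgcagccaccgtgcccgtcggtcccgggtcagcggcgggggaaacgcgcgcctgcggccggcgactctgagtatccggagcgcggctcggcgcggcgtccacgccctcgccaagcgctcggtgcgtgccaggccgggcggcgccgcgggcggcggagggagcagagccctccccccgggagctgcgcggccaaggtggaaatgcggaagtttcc
Dock10: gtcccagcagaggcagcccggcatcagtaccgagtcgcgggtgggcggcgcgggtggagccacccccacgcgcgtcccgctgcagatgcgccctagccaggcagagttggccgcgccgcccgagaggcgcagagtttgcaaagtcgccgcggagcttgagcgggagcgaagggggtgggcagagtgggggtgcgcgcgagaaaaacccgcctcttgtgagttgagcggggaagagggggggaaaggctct
Dock11: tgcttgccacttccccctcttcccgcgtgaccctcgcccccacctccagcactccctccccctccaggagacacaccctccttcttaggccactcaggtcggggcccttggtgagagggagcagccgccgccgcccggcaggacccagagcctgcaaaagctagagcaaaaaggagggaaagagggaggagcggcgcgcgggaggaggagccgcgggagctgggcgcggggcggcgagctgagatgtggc
Dock4: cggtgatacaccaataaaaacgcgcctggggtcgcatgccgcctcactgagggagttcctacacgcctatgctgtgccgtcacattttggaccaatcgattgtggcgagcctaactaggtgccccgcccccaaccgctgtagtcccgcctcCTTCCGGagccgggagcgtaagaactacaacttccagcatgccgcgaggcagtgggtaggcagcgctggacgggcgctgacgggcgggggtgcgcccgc
The *Dock2* window had 52.8% GC and 4 CpG dinucleotides, close to the medians of 52.4% and 6 over the 32851 windows of the RefSeq table. *Dock8* had 77.6% GC and 43 CpG, the *Dock10* window shown 70.4% and 27, and *Dock11* 69.6% and 18, each above the upper quartile of 61.2% and 16. *Dock10* has another RefSeq start, 93175 bases inside the gene, whose window (chr1:80665353-80665602, not shown) had 43.2% GC and 5 CpG. *Dock2* held AGGAAG, 8 bases before the start, and CCGGAAG, 159 bases before it, both on the strand of the gene. The inner *Dock10* window also held AGGAAG, 23 bases before its start on the strand of the gene. Neither motif was found in the windows shown for *Dock8*, *Dock10* and *Dock11*. *Dock4* held CCGGAAG on the opposite strand, 99 bases before the start, where the printed strand reads CTTCCGG. Of the 3 windows of *Dock9*, another widely expressed member, 1 (chr14:121698418-121698667, not shown) held AGGAAG on the opposite strand, 247 bases before its start. Over all windows, AGGAAG occurred in 29.5% and CCGGAAG in 6.91%, so the first is common, and a match is a run of letters and no measure of binding. The table matched 8 of the 9 members with 11 windows, and *Dock5* had no entry.

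*Dock2*, the Rac exchange factor of lymphocytes, neutrophils and macrophages, was at 48.1, 74.9, 68.1 and 36.9 CPM in *K-Ctrl* tumors 1 to 4 and at 17.5, 14.5, 11.2 and 13.2 CPM in *K-Setd2KO* tumors 1 to 4. Every *K-Ctrl* tumor was above every *K-Setd2KO* tumor, with replicate 4 the lowest of the controls. The means were 57.0 ± 17.6 and 14.1 ± 2.64 CPM (SD, n = 4 each), which left 24.7% of the control level, and the log2 fold change of the fit was -2.01 (SE 0.247). The counts behind these values ran from 414 to 1476 in *K-Ctrl* tumors and from 77 to 340 in *K-Setd2KO*.

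*Dock8*, the Cdc42 exchange factor that keeps migrating T cells and dendritic cells intact, was at 63.7, 75.5, 82.8 and 53.9 CPM in *K-Ctrl* tumors and 23.0, 20.8, 21.9 and 16.1 CPM in *K-Setd2KO* tumors. The groups did not overlap, and the lowest tumor of each genotype was replicate 4. *K-Setd2KO* tumors kept 29.6% of the control mean (69.0 ± 12.8 against 20.4 ± 3.04 CPM, SD, n = 4 each), a log2 fold change of -1.75 (SE 0.174). *Dock8* kept the largest fraction of the control level among the 4.

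*Dock10*, a Cdc42 exchange factor described in B cells and induced there by interleukin-4, was at 107, 136, 139 and 56.9 CPM in *K-Ctrl* tumors and 27.3, 26.5, 21.8 and 20.2 CPM in *K-Setd2KO* tumors. *K-Ctrl* replicate 4 was below the other controls but still above all *K-Setd2KO* tumors. The mean went from 109.9 ± 38.1 to 24.0 ± 3.51 CPM (SD, n = 4 each), or 21.8% of control, with a log2 fold change of -2.19 (SE 0.272). *Dock11*, another D group member, which is X-linked and was first studied in lymphoid germinal center cells, was at 29.9, 40.7, 40.4 and 16.4 CPM in *K-Ctrl* tumors and 8.01, 6.35, 6.28 and 9.24 CPM in *K-Setd2KO* tumors. Here too replicate 4 was the lowest control and no *K-Setd2KO* tumor reached it. The means were 31.9 ± 11.5 and 7.47 ± 1.43 CPM (SD, n = 4 each), 23.4% of control and a log2 fold change of -2.10 (SE 0.297), on 54 to 156 counts in *K-Setd2KO* tumors.

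**Figure D1:**
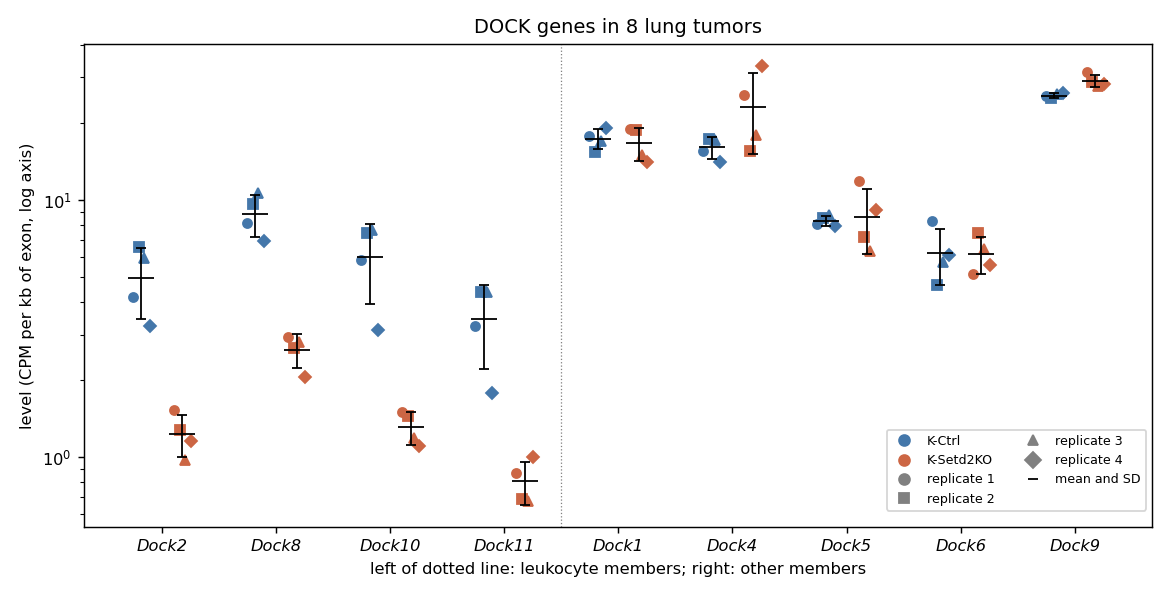
Level of each of the 9 DOCK genes (CPM per kilobase of exon, log axis) in 8 tumors, 4 of each genotype; points are tumors, marker shape is the replicate number, horizontal lines are means and bars are SD. The 4 genes left of the dotted line do not overlap between genotypes and are lower in K-Setd2KO, at 21.8% to 29.6% of control, while to the right only Dock9 does not overlap, with K-Setd2KO at 114% of control.

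*Dock1*, the Rac exchange factor of engulfment and of integrin signaling in many cell types, was at 165, 144, 158 and 178 CPM in *K-Ctrl* tumors and 176, 174, 139 and 131 CPM in *K-Setd2KO* tumors. The ranges overlapped widely and the log2 fold change was -0.06 (SE 0.134). *Dock5*, its close relative, known in osteoclasts and mast cells, was at 83.7, 87.6, 90.3 and 81.6 CPM in *K-Ctrl* tumors and 122, 74.3, 65.3 and 94.6 CPM in *K-Setd2KO* tumors. The *K-Setd2KO* tumors fell on both sides of the controls, with SDs of 3.90 CPM in *K-Ctrl* tumors and 25.1 CPM in *K-Setd2KO*, and the log2 fold change was 0.05 (SE 0.185).

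*Dock4*, a Rac exchange factor linked to Wnt signaling and to cell junctions, was at 126, 139, 138 and 113 CPM in *K-Ctrl* tumors and 206, 125, 145 and 268 CPM in *K-Setd2KO* tumors. Replicates 1 and 4 of *K-Setd2KO* were above all controls, replicate 3 was just above them, and replicate 2 lay within them. The mean was 144% of control (129 ± 12.3 against 186 ± 64.5 CPM, SD, n = 4 each), with a log2 fold change of 0.52 (SE 0.226), the largest positive value among the 9 genes. Without *K-Setd2KO* replicate 4 it was 0.29. *Dock6*, which acts on both Rac and Cdc42, was at 54.4, 30.8, 37.6 and 40.0 CPM in *K-Ctrl* tumors and 33.7, 48.7, 42.4 and 36.8 CPM in *K-Setd2KO* tumors. The ranges were nested and the log2 fold change was -0.01 (SE 0.194).

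*Dock9*, a broadly expressed Cdc42 exchange factor, was at 335, 329, 341 and 345 CPM in *K-Ctrl* tumors and 417, 381, 367 and 376 CPM in *K-Setd2KO* tumors. All *K-Setd2KO* tumors were above all controls, by a small margin: the means were 337 ± 7.16 and 385 ± 21.8 CPM (SD, n = 4 each), 114% of control, and the log2 fold change was 0.19 (SE 0.103). Outside the 9, *Dock3*, a neuronal gene, had 1 to 16 counts per *K-Ctrl* tumor and 0 to 5 per *K-Setd2KO* tumor and was not tested at this depth.

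Across the whole table, 1897 of 14929 genes tested (12.7%) passed an adjusted p of 0.05 in the same fit, 1155 lower (7.74%) and 742 higher (4.97%) in *K-Setd2KO*, and the median log2 fold change was 0.03. All 9 DOCK members passed the filter on low counts. Of the 4 leukocyte members, 4 were among the genes called lower, their median log2 fold change was -2.06, with no overlap between genotypes, which 11.2% of all genes tested showed in that direction. Of the other 5, 0 were called by edgeR, DESeq2 or limma voom, the median log2 fold change was 0.05, and 1 (*Dock9*) did not overlap in the higher direction, which 9.06% of all genes showed. Since the choice of members fixed these counts, nothing is read from them. The total of genes called was 763 without *K-Ctrl* replicate 3, 938 without *K-Ctrl* replicate 1, 1011 without *K-Setd2KO* replicate 3 and 1126 without *K-Ctrl* replicate 2.

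Differences of mean log2 CPM within each sex, where 3 tumors face 1, are given as values only. For *Dock2* the log2 difference was -2.13 among males and -2.31 among females. For *Dock8* it was -1.58 and -1.93, and for *Dock10* -2.11 and -2.47. For X-linked *Dock11* it was -2.08 and -2.37. The other members were closer to 0, with *Dock1* at -0.26 in males and 0.14 in females, *Dock5* at -0.38 and 0.12, *Dock6* at -0.04 and 0.35, *Dock4* at 0.21 and 0.45, and *Dock9* at 0.11 and 0.25.

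Scaled to exon length, so that genes can be set beside each other, *Dock9* was the most abundant member in *K-Ctrl* tumors at 25.5 CPM per kb, apart from *Dock1* (17.3) and *Dock4* (16.0), whose ranges overlapped. A group with overlapping neighbors followed, running from *Dock8* (8.83) through *Dock5* (8.30), *Dock6* (6.21), *Dock10* (6.01) and *Dock2* (4.99) to *Dock11* (3.45), all in CPM per kb. *Dock3*, at 0.0299 CPM per kb, was apart from all of them. In *K-Ctrl* tumors the leukocyte members were thus interleaved with the widely expressed ones.

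In *K-Setd2KO* tumors the order separated into blocks. *Dock9* (29.1 CPM per kb), *Dock4* (23.0) and *Dock1* (16.6) overlapped with their neighbors and stood apart from *Dock5* (8.62) and *Dock6* (6.16). All 5 were above *Dock8* (2.62), which was in turn above *Dock10* (1.31), *Dock2* (1.23) and *Dock11* (0.808), whose ranges overlapped from neighbor to neighbor. Every widely expressed member was therefore above every leukocyte member on this scale, which was not so in the controls.

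The leukocyte members supplied 22.3%, 28.4%, 27.8% and 17.04% of the summed length-scaled mRNA of the 9 members and *Dock3* in *K-Ctrl* tumors 1 to 4, and 6.87%, 7.27%, 7.15% and 5.56% in *K-Setd2KO* tumors. The share was 23.9% ± 5.33 against 6.71% ± 0.786 (SD, n = 4 each), with no overlap. The summed level of these genes differed less, going from 96.6 ± 6.19 to 89.4 ± 9.74 CPM per kb, with overlapping ranges. The leukocyte sum went from 23.3 ± 6.38 to 5.97 ± 0.656 CPM per kb and the sum of the other 5 members from 73.3 ± 1.88 to 83.5 ± 9.50 CPM per kb. The mean share of *Dock9* was 26.5% in *K-Ctrl* tumors and 32.7% in *K-Setd2KO* tumors, and that of *Dock4* 16.6% and 25.4%. As in any bulk tissue, fewer cells of a type and less RNA per cell cannot be told apart in these values.

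**Figure D2:**
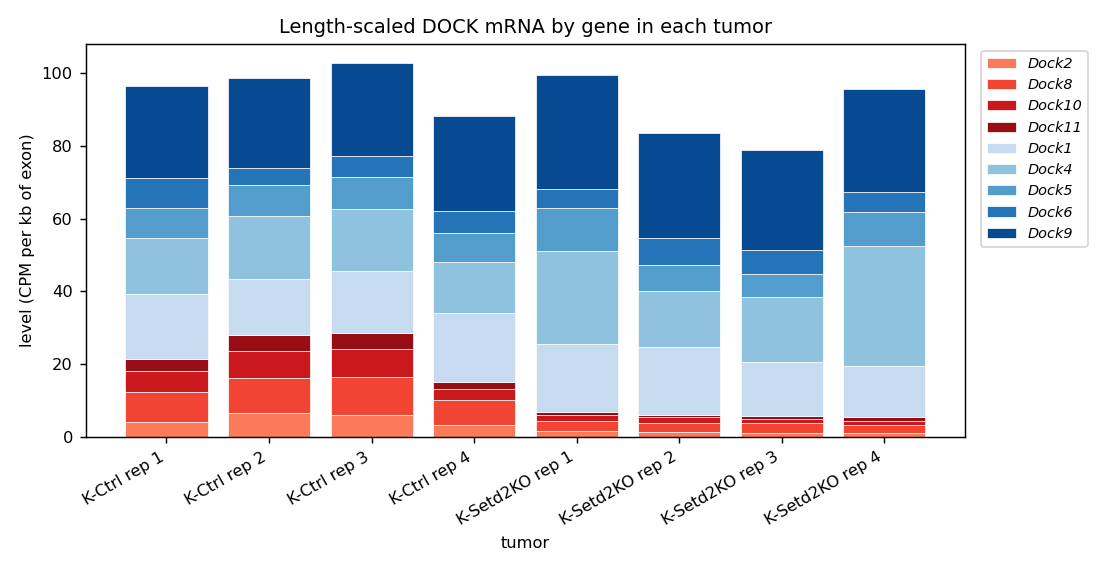
Length-scaled level (CPM per kilobase of exon, stacked from 0) of the 9 DOCK members in each of the 8 tumors, with the 4 leukocyte members in red shades at the bottom and Dock1, Dock4, Dock5, Dock6 and Dock9 in blue shades above. The red part reaches 15.03 to 28.6 CPM per kb in K-Ctrl and 5.32 to 6.84 CPM per kb in K-Setd2KO tumors, while the full height stays between 79.0 and 102.9 CPM per kb.

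Among themselves the leukocyte members kept similar proportions. The length-scaled ratio of *Dock10* to *Dock11* was 1.75 ± 0.05001 in *K-Ctrl* tumors and 1.68 ± 0.419 in *K-Setd2KO* tumors, and that of *Dock11* to *Dock2* 0.681 ± 0.0963 and 0.667 ± 0.149. *Dock8* to *Dock2* was 1.83 ± 0.279 and 2.17 ± 0.481 and *Dock10* to *Dock2* 1.19 ± 0.186 and 1.07 ± 0.127 (SD, n = 4 each throughout). The ranges of the 4 ratios overlapped between genotypes. Against a widely expressed member of the same group the ratios did not overlap: *Dock2* to *Dock1* went from 0.296 ± 0.114 to 0.0743 ± 0.00861, and *Dock8* to *Dock6* from 1.51 ± 0.529 to 0.433 ± 0.0993. *Dock10* to *Dock9* went from 0.237 ± 0.0841 to 0.0451 ± 0.00507, without overlap.

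Which cells of the tumors transcribed these genes cannot be read from bulk counts. Several lists of leukocyte markers were lower along with the 4 genes, the neutrophil list excepted, and the natural killer cell sums overlapped. Of 12 pan-leukocyte markers, 9 were called lower (edgeR quasi-likelihood test, adjusted p under 0.05), their median log2 fold change was -1.78, and their summed level ran from 1322 to 2446 CPM in *K-Ctrl* tumors and from 722 to 898 CPM in *K-Setd2KO* tumors. *Ptprc*, which encodes the leukocyte antigen CD45, was at a log2 fold change of -2.08. Macrophage markers summed to 573 to 1671 CPM and 198 to 377 CPM (6 of 12 called lower). Their log2 fold changes ran from -2.29 to -0.30, with *Mrc1* at means of 386 and 82.8 CPM and *C1qa* at 24.7 and 17.8 CPM. Dendritic cell markers summed to 144 to 304 CPM and 47.8 to 82.3 CPM (4 of 7 called lower). T cell markers summed to 62.5 to 173 CPM and 11.1 to 51.8 CPM (1 of 11 called lower), and B cell markers to 34.2 to 86.1 CPM and 18.1 to 28.6 CPM (1 of 6 tested, of 8). Both sums were lower in *K-Setd2KO* tumors with no overlap, at low levels per gene. Neutrophil markers summed to 24.8 to 36.7 CPM and 15.1 to 63.8 CPM, with 1 of 7 tested (of 8) called lower, 4 of 7 at a positive log2 fold change and a median of 0.51, and their defining marker *Ly6g* was at 0 counts in 3 of 4 tumors of each genotype. Natural killer cell markers summed to 2.86 to 7.65 CPM and 0.461 to 5.29 CPM, with overlap and 1 called lower of 1 tested (of 6). The means of *Prf1* (0.338 and 0.434 CPM) and *Eomes* (0.362 and 0.730 CPM) were higher in *K-Setd2KO* tumors. Those of the other listed genes were lower, with *Klrb1c* at 0 in 3 *K-Setd2KO* tumors.

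Markers of other lung cells also differed in part. Endothelial markers summed to 609.9 to 2194 CPM and 246 to 619 CPM (3 of 12 called lower), and fibroblast markers to 567 to 1179 CPM and 146 to 612 CPM (3 of 9 called lower). Of 14 epithelial markers, 7 were called higher, with sums of 2674 to 4103 CPM and 3787 to 4747 CPM, while alveolar type 2 markers, with 1 of 8 called higher, ran from 48551 to 71487 CPM and from 59176 to 81101 CPM. Of 7 smooth muscle and pericyte markers, 0 were called by edgeR or limma voom and 3 lower by DESeq2 (4 at an unadjusted p under 0.05 in edgeR), and the sums were 125 to 228 CPM and 53.6 to 158 CPM. Alveolar type 1 markers, with 2 of 8 called lower, summed to 2465 to 5117 CPM and 1381 to 2537 CPM. Erythroid genes, with 0 of 5 called by edgeR or limma voom and 4 called lower by DESeq2 (5 at an unadjusted p under 0.05 in edgeR), summed to 150.4 to 805 CPM and 76.4 to 202 CPM. The part of these shifts in the levels of the DOCK genes was not tested.

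Set against leukocyte markers in the same tumor, the 4 genes together gave different answers with different markers. Per 1000 counts of the 12 pan-leukocyte markers, they had 158, 136, 135 and 124 counts in *K-Ctrl* tumors and 84.4, 94.4, 84.6 and 65.5 in *K-Setd2KO* tumors. The groups did not overlap (138 ± 14.1 and 82.2 ± 12.1, SD, n = 4 each), a log2 difference of -0.76. A single marker carried much of this: *Lcp1*, the actin-bundling protein L-plastin, made up 36.9% of the marker counts in *K-Ctrl* tumors and 58.0% in *K-Setd2KO* tumors, and its own log2 fold change was -0.61 (adjusted p = 0.130, not called). Without *Lcp1* the values were 219.7 ± 12.01 and 194.0 ± 8.16 per 1000 counts, a log2 difference of -0.18 with no overlap. Per 1000 counts of *Ptprc* alone they were 1196 ± 199 and 1225 ± 206, a log2 difference of 0.04 with overlapping ranges. These 2 denominators were added after the values were seen. The list without *Lcp1* still held *Arhgap45*, which is also among the GTPase-activating proteins listed below. Its log2 fold change was -0.66 (edgeR adjusted p = 0.0622, not called). It made up 3.86% of the counts of the 12 markers in *K-Ctrl* tumors and 5.86% in *K-Setd2KO* tumors, and a difference without it was not computed. Against the summed T cell, B cell and macrophage markers, most of which were macrophage counts, the log2 difference was -0.15, with overlap. Against each list alone it was 0.09 (T cell), -0.70 (B cell) and -0.14 (macrophage), all with overlap.

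Gene by gene, *Dock10* stayed lower per 1000 counts without *Lcp1*, at 88.8 ± 11.5 in *K-Ctrl* tumors and 70.2 ± 1.93 in *K-Setd2KO* tumors with no overlap. *Dock2* (46.8 ± 2.81 and 41.3 ± 5.05), *Dock8* (58.4 ± 9.003 and 60.1 ± 6.79) and *Dock11* (25.7 ± 3.08 and 22.4 ± 6.19) overlapped on that scale. Per 1000 counts of *Ptprc* all 4 overlapped, *Dock10* at 485 ± 107 and 447 ± 99.7 included. The 5 other members were higher against each of these 3 denominators without overlap. Per 1000 *Ptprc* counts *Dock9* went from 1641 ± 629 to 7146 ± 893 and *Dock1* from 800.3 ± 359 to 2894 ± 674. A lower denominator raises such a ratio by itself, and *Ptprc* was at a log2 fold change of -2.08. Per 1000 counts of the epithelial markers, *Dock1* was lower without overlap (52.1 ± 5.90 and 37.0 ± 4.84), while *Dock4*, *Dock5*, *Dock6* and *Dock9* overlapped.

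**Figure D3:**
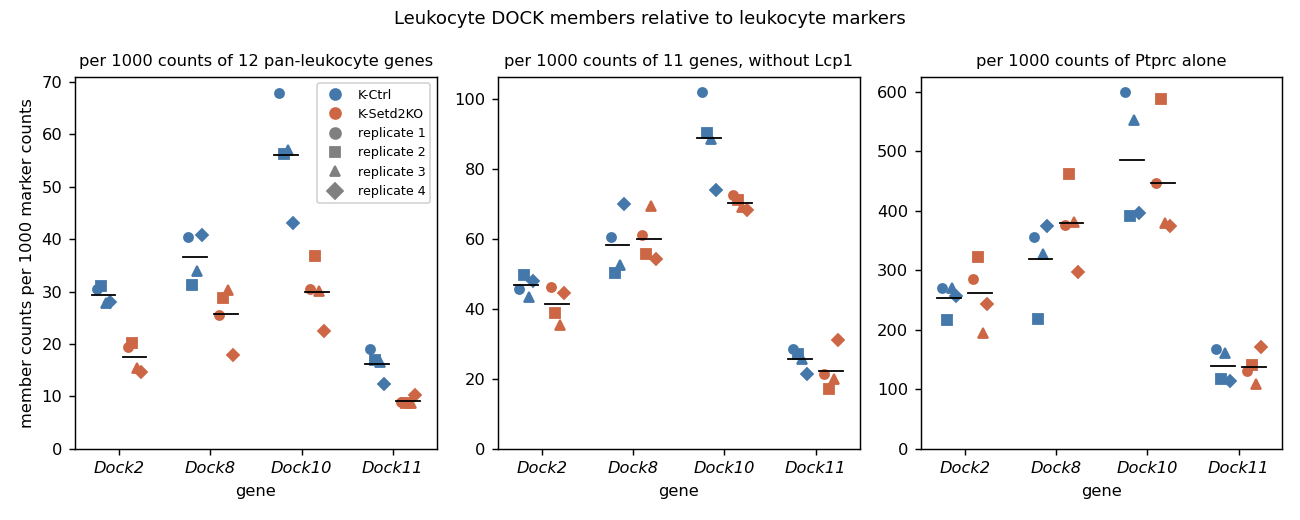
Counts of Dock2, Dock8, Dock10 and Dock11 per 1000 counts of 12 pan-leukocyte markers (left), of the same list without Lcp1 (middle) and of Ptprc alone (right), each axis linear from 0; points are tumors and lines are means of 4. All 4 genes are separated by genotype on the left, only Dock10 in the middle, and none on the right.

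The 5 tested protein-coding genes nearest to the mean pattern of the leukocyte members over the 8 tumors were *Ccdc88a*, *Dab2*, *Cd48*, *Slc7a2* and *Itgb2*. Nearness was the root-mean-square distance between log2 CPM values centered per gene, over 13350 genes, and was 0.136, 0.137, 0.137, 0.142 and 0.159 for the 5. Their log2 fold changes were -2.05, -1.92, -2.19, -1.85 and -2.03. The distance includes the genotype difference, which was known when the members were chosen. Genes near the mean of the members are thus bound to have similar fold changes, and nothing is read from these values. For comparison, the members themselves were at 0.102 (*Dock2*), 0.140 (*Dock10*), 0.189 (*Dock11*) and 0.216 (*Dock8*) from their own mean, to which each contributes. *Cd48* and *Itgb2* are also in the pan-leukocyte list. The nearest genes to *Dock1* were *Lnx2* (0.0688) and *Ctdnep1* (0.0715), to *Dock4* *Nol4l* (0.0677) and *Tmem263* (0.0962), to *Dock5* *Cstf3* (0.0952) and *Rbmxl1* (0.101), to *Dock6* the mitochondrial genes *mt-Nd5* (0.0590) and *mt-Nd6* (0.0868), and to *Dock9* *Fbxo38* (0.0437) and *Tcp1* (0.0481).

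DOCK proteins work within a larger set of adaptors, GTPases, effectors and counteracting proteins, of which, with *Dock3* counted in, 114 genes were listed and 111 tested. Of these, 27 were called lower and 6 higher (edgeR quasi-likelihood test, adjusted p under 0.05), with a median log2 fold change of -0.22, against 7.74% lower and 4.97% higher over all genes. The count called lower was 14 without *K-Ctrl* replicate 3, and the count called higher was 3 without any one of *K-Ctrl* replicates 1 and 3 or *K-Setd2KO* replicates 1, 3 and 4. Of 15 adaptors, 1 was called lower and 1 higher. *Sh3kbp1*, which encodes the endocytic adaptor CIN85, went from 35.1 ± 7.74 to 12.2 ± 4.96 CPM (log2 fold change -1.53, SE 0.295, adjusted p = 0.0142 by edgeR). *Nck2*, an SH2 and SH3 adaptor, went from 30.6 ± 4.46 to 54.5 ± 8.71 CPM (log2 fold change 0.83, SE 0.161, adjusted p = 0.0143). *Lrch1*, which binds and restrains Dock8, had a log2 fold change of -0.54 (adjusted p = 0.0866, overlapping ranges).

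*Elmo1*, the ELMO partner of *Dock2* in leukocytes, was not called in either direction. It was at 42.5, 32.9, 34.5 and 22.0 CPM in *K-Ctrl* tumors and 54.8, 17.1, 40.1 and 71.0 CPM in *K-Setd2KO* tumors. Both the lowest and the highest of the 8 values belonged to *K-Setd2KO* tumors, and the log2 fold change was 0.47 (SE 0.385, edgeR adjusted p = 0.453). It was 0.17 without *K-Setd2KO* replicate 4, 0.74 without *K-Setd2KO* replicate 2 and 0.25 in limma voom (adjusted p = 0.796, 0.0926 and 0.716). Among 8 Rac and Cdc42 type GTPases, *Rac2*, the Rac of blood cells, was called lower, at 12.99, 39.2, 22.9 and 17.9 CPM in *K-Ctrl* tumors and 12.6, 7.88, 5.44 and 8.73 CPM in *K-Setd2KO* tumors. The groups were separated by a narrow gap, and the call (log2 fold change -1.42, SE 0.371, edgeR adjusted p = 0.0378) was lost in limma voom (adjusted p = 0.0684) and without any one of *K-Ctrl* replicates 2 and 3 or *K-Setd2KO* replicates 2, 3 and 4 (adjusted p from 0.0699 to 0.0921). Ubiquitous *Rac1* had a log2 fold change of -0.22 (adjusted p = 0.255). *Rhov*, an atypical relative of Cdc42, was called higher from a low level, 1.26 ± 0.611 to 3.63 ± 1.20 CPM (edgeR adjusted p = 0.0455), and lost the call without any tumor but *K-Ctrl* replicate 4 (adjusted p from 0.0651 to 0.122), with no filter (0.0709) and with a sex term (0.119). *Rhoj*, an endothelial relative of Cdc42, had a log2 fold change of -1.03 (adjusted p = 0.0568) and was not called.

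Of 30 effector genes tested of 32, 6 were called lower and 2 higher. The 6 were *Was*, *Nckap1l*, *Wasf3*, *Cyfip2* and the *Ncf1* and *Ncf4* subunits of the phagocyte NADPH oxidase, which Rac activates. *Was*, the Wiskott-Aldrich actin nucleation factor of blood cells, went from 11.8 ± 4.02 to 2.85 ± 0.997 CPM (log2 fold change -2.02, edgeR adjusted p = 0.0105). *Ncf1* went from 54.6 ± 22.0 to 17.02 ± 2.37 CPM (log2 fold change -1.68, adjusted p = 0.00929). *Wasl*, the broadly expressed relative of *Was*, moved the other way, at 133, 130, 126 and 124 CPM in *K-Ctrl* tumors and 210, 144, 231 and 268 CPM in *K-Setd2KO* tumors. All *K-Setd2KO* tumors were above the controls, with a log2 fold change of 0.73 and an edgeR adjusted p = 0.0290 that rose to between 0.0540 and 0.0829 when any tumor but *K-Setd2KO* replicate 2 was left out and was 0.0612 with a sex term. *Baiap2* was the other effector called higher (log2 fold change 0.51, edgeR adjusted p = 0.0496), and it lost the call without any one of the 8 tumors (adjusted p from 0.0570 to 0.108), with RLE factors (0.0507), with no filter (0.0755) and with a sex term (0.0546). Among the genes called lower, *Cyfip2* (edgeR adjusted p = 0.0469) lost the call without any tumor but *K-Ctrl* replicate 1 and *K-Setd2KO* replicate 2 (adjusted p up to 0.117), with no filter (0.0640) and in limma voom (0.109). *Ncf4* (adjusted p = 0.0364) lost it without any tumor but replicate 1 of each genotype (up to 0.0905). *Wasf3* (adjusted p = 0.0245) lost it without *K-Ctrl* replicates 1 or 3 or *K-Setd2KO* replicates 3 or 4 (up to 0.0703) and with a sex term (0.0939).

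Exchange factors of the other structural class, which use a DH domain, were called lower for 10 of 37 genes and higher for 1, *Sos2*. *Prex1*, *Arhgef6* and *Plekhg1* had the smallest p-values, with log2 fold changes of -1.75, -1.27 and -1.61 and edgeR adjusted p-values of 0.00560, 0.00574 and 0.00643. *Prex1* is known from neutrophils, whereas *Prex2*, *Rasgrf2* and *Vav3*, also called lower (-2.39, -2.53 and -2.25 on the log2 scale), are not restricted to leukocytes. The *Prex2* call (edgeR adjusted p = 0.0153) was lost with no filter (0.0561) and with a sex term (0.0586). Of 21 genes for GTPase-activating and sequestering proteins, which oppose exchange factors, 9 were called lower and 1 higher. *Arhgap30* went from 102.0 ± 19.8 to 30.4 ± 4.17 CPM (log2 fold change -1.75, edgeR adjusted p = 0.00306). *Chn2*, which encodes the Rac-inactivating protein beta-chimaerin, was at 5.17, 4.96, 2.95 and 3.12 CPM in *K-Ctrl* tumors and 26.1, 13.5, 12.9 and 35.1 CPM in *K-Setd2KO* tumors. The groups were far apart, with a log2 fold change of 2.43 (SE 0.380, edgeR adjusted p = 0.00826), the largest increase among the 111 genes. It overlaps 4 annotated genes on the opposite strand.

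The split within the DOCK family was set beside 8 partner genes used mainly by leukocytes and 8 used widely. Of the leukocyte genes, 6 were called lower (*Rac2*, *Nckap1l*, *Was*, *Vav1*, *Arhgdib* and *Coro1a*), with a median log2 fold change of -1.39. Of the widely used genes, 1 was called higher (*Wasl*) and 0 lower by edgeR, DESeq2 and limma voom alike (1 lower at an unadjusted p under 0.05 in edgeR), with a median of -0.19. *Nckap1l*, the blood cell subunit of the WAVE complex, was at -1.57 on the log2 scale (edgeR adjusted p = 0.00877), and its relative *Nckap1* at 0.07 (adjusted p = 0.789). *Vav1* was at -1.70 (adjusted p = 0.00667) and *Vav2* at -0.19 (adjusted p = 0.388). *Arhgdib* was at -1.36 (adjusted p = 0.00834) and *Coro1a* at -1.27 (adjusted p = 0.0155), while *Arhgdia* and *Coro1b* were at -0.18 and -0.47 and were not called. *Fyb*, at -0.86 (adjusted p = 0.201), and *Elmo1* were the leukocyte genes not called. *Fyb* was at -0.48 without *K-Ctrl* replicate 2 and at -1.31 without *K-Setd2KO* replicate 1 (edgeR adjusted p = 0.474 and 0.0624), and *Arhgdia* at -0.12 without *K-Ctrl* replicate 3 and at -0.28 without *K-Setd2KO* replicate 2. *Elmo2* was at 0.05 and *Crk* at -0.22, without a call. The differences between paired genes were not tested, and all of these rest on the same 8 tumors as the DOCK values.

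**Figure D4:**
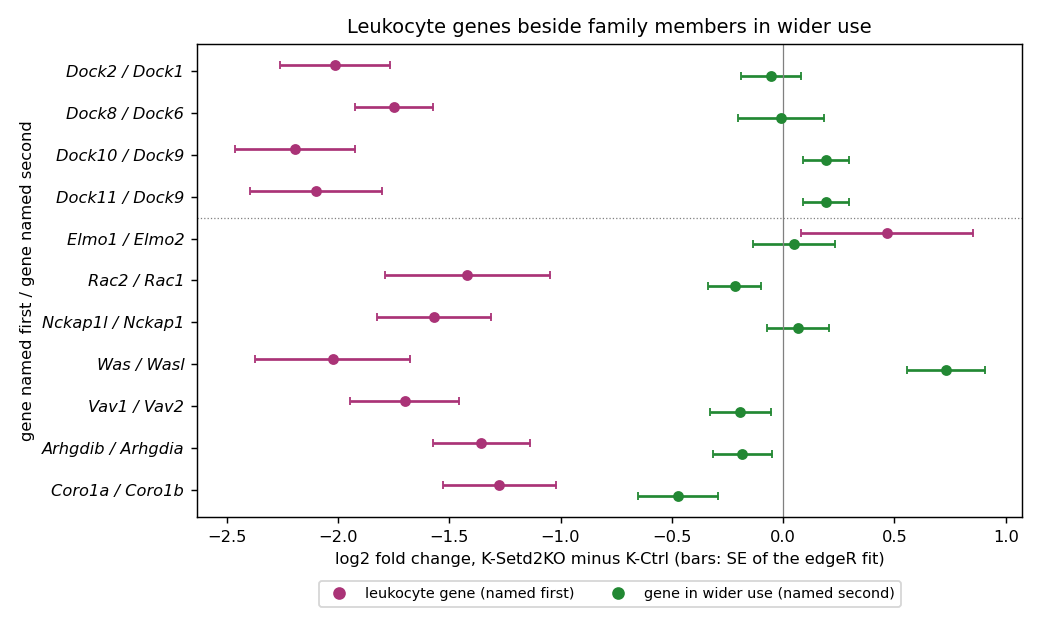
Log2 fold change (K-Setd2KO minus K-Ctrl, x axis) of a leukocyte gene and of a more widely used relative in each row; points are estimates and bars standard errors of the edgeR fit, with DOCK pairs above the dotted line and partner genes below. Fyb and Crk, which are not relatives, are not plotted. The leukocyte genes plotted lie between -2.19 and -1.27 except Elmo1 at 0.47, and the widely used genes between -0.47 and 0.73.

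Genes that overlap the DOCK members were at low levels. *Dock4*, *Dock9* and *Dock11* overlap no other annotated gene, and among the genes that overlap the other members the highest single value was 6.33 CPM, for *Angptl8*, which lies on the opposite strand within *Dock6*. The library kit keeps strand, but whether counting used it is not given in the sources used here, so reads of *Dock6* and *Angptl8* may not be separated.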

How the data were processed

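RNA from 8 mouse lung tumors (4 *K-Ctrl*, 4 *K-Setd2KO*, grouped by the genotype label) was sequenced from stranded mRNA libraries. The deposited table holds raw counts per gene, which the authors did not normalize, and the submitters' processing notes name STAR 2.5.2b, featureCounts 1.5.0-p1 and GRCm38.p4. Whether counting used strand is not given in the sources used here. Symbols came from GENCODE release M21, in which 48349 of 48709 identifiers (99.26%) were found. No columns of the authors' own comparisons were used.

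Counts were analysed in R 4.3.3 with edgeR 4.0.16 (filterByExpr, TMM factors, robust quasi-likelihood fit on genotype, Benjamini-Hochberg adjustment over 14929 genes, called under an adjusted p of 0.05). CPM values were divided by summed exon length in kb where genes were compared with each other, and log2 CPM values for sex and pattern comparisons used a prior count of 2. The script was tested on simulated data. DESeq2 1.42.0, limma 3.58.1 (voom), other scaling factors and filters, a sex term, a replicate block and leaving out each tumor were the alternatives. The lowest chi-square between tumors of a group was 30.5 per degree of freedom over genes with at least 20 counts, so no libraries were treated as copies. Intervals of counting error are not given, since the SD over 4 tumors includes that error.

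Members, marker lists and pathway lists were chosen with earlier results of these data known. Named were all members, *Dock3*, the leukocyte and widely used partner genes, the 3 genes of each other pathway list with the smallest p, and the nearest patterns (5 for the leukocyte members, 2 for each other member); genes called in a list of few calls and *Prex2*, *Rasgrf2* and *Vav3* were named after their values were seen. Promoter windows are from RefSeq. A planned comparison of the protein sequences was not run here, and some items of the lists and of the mouse model are not reported here.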

Additional observations from a re-analysis of the deposited data

Results flagged for a closer look

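In groups of 4 tumors, 7 of 120 sets of values had 1 tumor far from the other 3, where chance gives about 1 in 20, or 6. The adaptor *Crk* was at 178 CPM in *K-Setd2KO* replicate 2 and at 190.5, 191 and 193 CPM in the other *K-Setd2KO* tumors, a small distance in a tight group. *Baiap2* was at 43.6 CPM in *K-Ctrl* replicate 2 and at 60.0, 60.2 and 61.6 CPM in the other controls, and *Prex2* at 35.4 CPM in *K-Setd2KO* replicate 1 and at 21.7, 22.7 and 23.9 CPM in the other *K-Setd2KO* tumors. Summed T cell markers reached 173 CPM in *K-Ctrl* replicate 2, against 62.5, 65.0 and 70.3 CPM in the other controls, and 51.8 CPM in *K-Setd2KO* replicate 1, against 11.1, 16.0 and 17.6 CPM. No DOCK gene had a tumor this far from its group. In *K-Setd2KO* replicate 1, summed natural killer cell markers were also high, at 5.29 CPM, as were erythroid genes, at 202 CPM.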

How the results depend on the processing

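The number of genes called was 1237 with a sex term, 3194 with DESeq2 (49 adjusted p-values NA), which included all 1897 genes of the edgeR fit, and 763 to 2058 with 1 tumor left out. With the replicate block 1341 genes were called, 1176 of them shared with the fit without it. Of the pathway genes 26 were called, 24 of them shared, with 23 lower in place of 27 and 3 higher in place of 6. Genes that lost their calls included *Rac2* (edgeR adjusted p = 0.0905), *Wasl* (0.0664), *Rhov* (0.0584), *Baiap2* (0.0778), *Cyfip2* (0.0635) and *Ncf4* (0.0703). *Rhoj* (0.0482) was among those that gained one. *Rhoj* was also called by DESeq2 (0.0128) and when each tumor had to hold 10 counts or more (0.0493), and *Lrch1* by DESeq2 (0.0470) and without *K-Setd2KO* replicate 2 (0.0232). Same-numbered tumors showed little shared deviation (correlations of -0.07, -0.03, 0.19 and -0.02, best with the own number for 1 of 4). No pairing by number was seen, though so few values cannot exclude a weak one. With 1 tumor left out, pathway genes called lower were 14 to 31 and called higher 3 to 5, and the median log2 fold change of the 5 widely expressed members was 0.025 to 0.18. The log2 difference of the leukocyte members per pan-leukocyte count (-0.76) was -0.15 with T cell, B cell and macrophage markers, -0.39 with the mean of log2 CPM, -0.18 without *Lcp1*, 0.036 with *Ptprc* alone and -0.83 to -0.65 with 1 tumor left out. Values near 0 changed sign for *Elmo2* (-0.13 to 0.16 with 1 tumor left out) and *Nckap1* (-0.047 with the sex term, -0.013 to 0.14 with 1 tumor left out). They also changed sign for *Dock5* (0.055, and -0.12 with the sex term, -0.13 to 0.18 with 1 tumor left out), *Dock6* (-0.011, and 0.16 with the sex term, 0.0056 with the replicate block, -0.12 to 0.16 with 1 tumor left out) and *Dock1* (-0.056, and -0.12 to 0.010 with 1 tumor left out). The cause of these changes was not tested, except that leaving out a tumor leaves fewer samples. Depth limits *Dock3*, at most 16 counts per tumor, and *K-Setd2KO* replicate 4, in which *Dock11* had 54 counts.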
